A study of Mus musculus with 4 samples.

Results

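The ribosomal protein genes and their germ cell paralogs were followed through the cell classes of mouse testicular organoids (TOs) and mouse testes. Members were all gene symbols made of Rpl or Rps, digits and at most 1 further letter, with Rplp0, Rplp1, Rplp2, Rpl10l, Rpl39l and Rpl3l added and with pseudogenes and the Rps6k kinases left out. This rule took 79 of 32285 genes, of which 49 encode large subunit and 30 small subunit proteins. They lay on 19 chromosomes, with 75 autosomal genes and 4 X-linked genes (Rpl10, Rpl36a, Rpl39 and Rps4x). All 79 had UMIs in every library, and 76 reached 50 CPM (a gene's UMIs scaled to 1000000 UMIs) in all 4 libraries.

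The ribosome reads mRNA into protein, and its proteins are made in matched amounts from genes scattered over the genome. In male meiosis the X chromosome is silenced from the pachytene stage on, so that proteins encoded there must come from stored products or from autosomal copies. Rpl10l and Rpl39l are such autosomal copies of Rpl10 and Rpl39 and are known from spermatogenic cells, whereas Rpl3l, a copy of Rpl3, is known from striated muscle.

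The study asked how far TOs, built by reaggregating dissociated testis cells of neonatal ICR mice, carry spermatogenesis in culture, and compared 2 TO libraries with 2 testis libraries. The design text gives 28 days of age for TOs and testes, while the dissociation protocol names TOs of day 21. Cells of both were unsorted, and the labels name no allele or treatment for either. Per the study's methods the TO libraries came from independent organoid batches and the testis libraries were biological replicates, so the spread behind each p-value is that between 2 libraries of a group.

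After filtering, 8713 to 9867 cells per library were kept, with 44931177 to 71940419 UMIs and a median of 2549 to 7561 UMIs per cell (testes 2549 and 3271, TOs 5479.5 and 7561). Pairs of libraries shared 30 to 55 barcodes. Clusters were named from markers with the ribosomal protein genes left out of the clustering, and "-like" marks such names. In testes, somatic classes held RNA of 6 spermatid genes (Tnp1, Tnp2, Prm1, Prm2, Odf1 and Oaz3) at 0.168% to 1.10% of UMIs, against at most 0.0003% in TOs, and the share of UMIs estimated to be free RNA in testis somatic classes was 22.7% to 58.6% in replicate 1 and 5.04% to 21.4% in replicate 2. The effect of subtracting it is given beside each result that it changes. The endothelial-like cells of TOs went against their name, since their Sertoli markers summed to 2733 and 1851 CPM and their endothelial markers to 256 and 136 CPM (2511 and 1754 CPM for endothelial markers in testes). The TO cells in spermatid-like clusters also went against their name, with spermatocyte markers at 1483 and 2925 CPM and spermatid markers at 301 and 1140 CPM (883 and 660 against 13431 and 97165 CPM in testes), and germ cell states, assigned cell by cell, put 10 of 103 and 15 of 38 of them among spermatids. In testes, 1619 of 1883 and 1837 of 2113 cells of the diplotene state lay in spermatid-like clusters. Cells of that state in testes held spermatid markers at 4591 and 9150 CPM and spermatocyte markers at 873 and 1102 CPM. Among Sertoli-like clusters, one cluster of 312 cells came from TOs only and one of 103 cells from testis replicate 2 only. Among Leydig-like clusters, one of 96 cells came from TOs only. Another held 292 of 1703 and 321 of 1558 Leydig-like cells in TOs against 41 of 568 and 11 of 341 in testes. One other somatic-like cluster held 58 of 5265 and 72 of 4945 cells of its class in TOs against 216 of 1286 and 145 of 848 in testes.

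The 150 bases before the RefSeq start of 3 genes of the main paralog pairs are shown after their names (RefSeq, GRCm38.p6), because their genes carry the switch from an X-linked parent to an autosomal copy that the results turn on. The window of Rpl10 lies at chrX:74270666-74270815 on the plus strand, that of Rpl10l at chr12:66284402-66284551 on the minus strand and that of Rpl39l at chr16:10170078-10170227 on the plus strand. Capitals mark CCGGAA, the core of an ETS-type site, on either strand.
Rpl10: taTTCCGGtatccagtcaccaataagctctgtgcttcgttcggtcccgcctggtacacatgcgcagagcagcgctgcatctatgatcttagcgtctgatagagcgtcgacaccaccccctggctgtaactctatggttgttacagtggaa
Rpl10l: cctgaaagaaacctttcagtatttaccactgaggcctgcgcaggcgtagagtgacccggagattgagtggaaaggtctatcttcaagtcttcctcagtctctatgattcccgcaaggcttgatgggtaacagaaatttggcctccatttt
Rpl39l: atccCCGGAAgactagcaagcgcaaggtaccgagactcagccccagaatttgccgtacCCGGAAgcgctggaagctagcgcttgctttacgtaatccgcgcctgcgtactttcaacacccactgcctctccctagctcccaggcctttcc
CCGGAA was found in the windows of Rpl10 and Rpl39l and not in that of Rpl10l. Over all 32851 windows of the same length, 9.23% held it on either strand, against 32.4% (23 of 71) of the windows of the 59 members that matched. TGACG, a core of the cyclic AMP response element, was in 13.3% of all windows and 28.2% of the member windows, and TATAAA was in 7.57% and 2.82%. Both strands were searched for each motif, and neighbouring matches may share end letters. In GENCODE vM21 the genes themselves lie at chrX:74270812-74273135 on the plus strand (Rpl10), chr12:66283379-66284401 on the minus strand (Rpl10l), chrX:37082520-37085402 on the minus strand (Rpl39), chr16:10170226-10174911 on the plus strand (Rpl39l) and chr17:24727820-24736143 on the plus strand (Rpl3l).

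Ribosomal protein mRNAs took a larger share of UMIs in TOs than in testes when all cells were pooled. TO replicate 1 gave 8.62% and TO replicate 2 gave 12.2%, against 6.24% and 4.44% in testis replicates 1 and 2. The groups did not overlap, and the means differed by 5.06 percentage points (exact two-sided permutation test, p = 0.33, the smallest that 2 against 2 libraries allow). The libraries also differed in their cells: 103 of 9802 and 38 of 8713 cells lay in spermatid-like clusters in TOs, most of them not spermatids by state, against 5774 of 9867 and 6794 of 9516 in testes. Of these testis cells, 1619 and 1837 were in the diplotene state. The values within classes, which follow, do not depend on how many cells of each class a library held, apart from free RNA. They may still depend on the clusters within a class, which differed between groups, and this was not tested.

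Within somatic classes the share was higher in TOs in 3 classes, overlapping between groups in Sertoli-like cells and lower in the endothelial-like cluster. Leydig-like cells, which make androgen, spent 10.9% and 14.97% of UMIs on these genes in TOs and 10.1% and 9.25% in testes. Their Leydig markers summed to 9033 and 3463 CPM in TOs and to 12146 and 17321 CPM in testes. Macrophage-like cells gave 9.53% and 10.3% in TOs against 7.47% and 7.06% in testes. The other somatic-like cells, which hold peritubular myoid-like and fibroblast-like clusters, gave 9.36% and 13.4% against 8.34% and 7.05%. In each of these 3 classes the groups did not overlap and TOs were higher by 3.27, 2.65 and 3.69 percentage points on average, and TO replicate 1 lay nearer to the testes than to TO replicate 2 in Leydig-like and other somatic-like cells.

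Sertoli-like cells, the nurse cells of the tubule, stood low in all libraries, with 3.96% and 3.75% in TOs and 4.38% and 3.18% in testes. Their ranges overlapped (difference 0.07 percentage points, exact permutation p = 1). The endothelial-like cluster, of the vessel lining, gave 5.83% and 6.56% in its 66 and 79 TO cells and 13.7% and 13.9% in its 132 and 87 testis cells, and the TO cells are those whose Sertoli markers exceeded their endothelial markers. With free RNA subtracted the testes gave 11.1% and 9.49% in Leydig-like, 8.04% and 7.37% in macrophage-like, 10.4% and 7.41% in other somatic-like and 3.45% and 2.81% in Sertoli-like cells. In Leydig-like and other somatic-like cells testis replicate 1 then lay above TO replicate 1, so that the groups overlapped, and in macrophage-like cells they did not. In Sertoli-like cells both testis libraries then lay below both TO libraries, so that the overlap was lost.

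**Figure D1:**
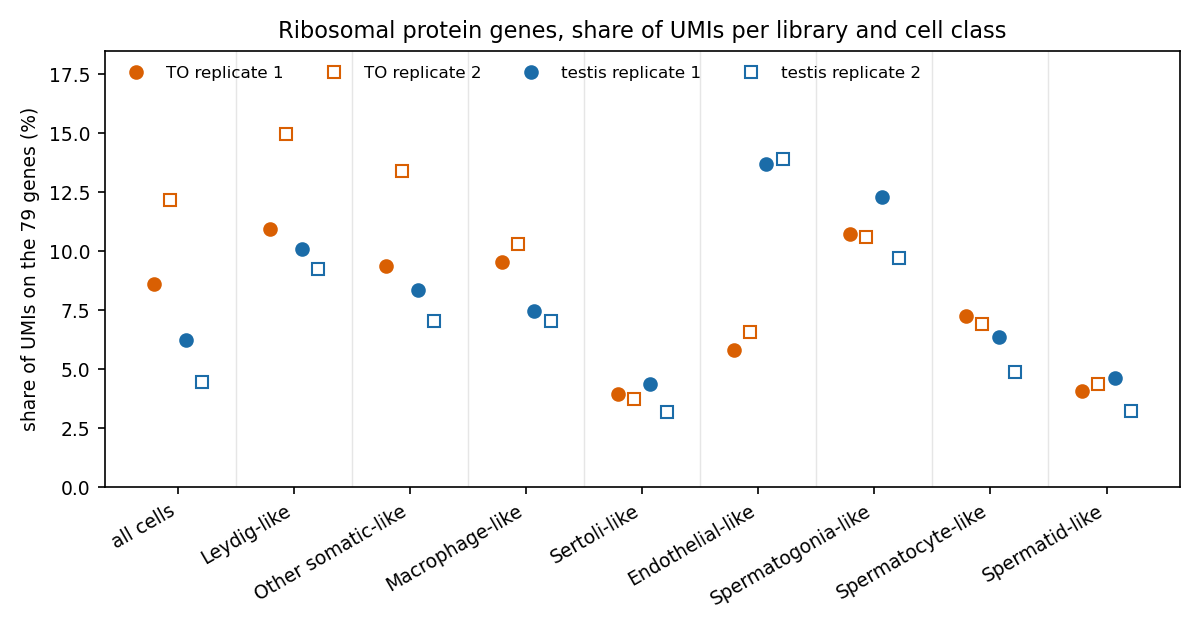
Share of UMIs on the 79 ribosomal protein genes (y axis, percent) in all cells and in each cell class (x axis), with 1 point per library and no error bars. Both TO libraries lie above both testis libraries in all cells and in Leydig-like, other somatic-like, macrophage-like and spermatocyte-like cells, while Sertoli-like cells stay between 3.18% and 4.38% in every library.

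Along spermatogenesis the share was highest in undifferentiated spermatogonia-like cells and lowest among spermatid-like cells in each of the 4 libraries. Undifferentiated spermatogonia-like cells gave 11.0% and 12.2% in TOs and 15.5% and 11.9% in testes. Differentiating spermatogonia-like cells gave 8.94% and 9.37% against 10.4% and 8.28%, and leptotene and zygotene-like cells 7.36% and 7.32% against 7.61% and 5.01%. At each of these 3 states the ranges overlapped, with testis replicate 1 the highest library and, except in undifferentiated cells, testis replicate 2 the lowest. With free RNA subtracted, undifferentiated cells of testes gave 18.2% and 12.5%, both above the TOs, while differentiating (12.2% and 8.69%) and leptotene and zygotene-like cells (8.32% and 5.06%) still overlapped.

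At pachytene, TOs gave 4.23% (54 cells) and 8.01% (12 cells) and testes 6.37% and 5.62%. At diplotene the values were 3.76% and 5.35% (25 cells each) against 5.13% and 3.47%. Early round spermatid-like cells gave 2.56% (10 cells) and 1.68% (15 cells) in TOs and 4.58% and 2.81% in testes, where the groups did not overlap and TOs were lower by 1.57 percentage points. Late spermatid-like cells were found in testes only, at 4.44% and 3.37%. TO cells of the meiotic and spermatid states were few throughout.

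By cluster class rather than by state, spermatogonia-like cells gave 10.7% and 10.6% in TOs and 12.3% and 9.71% in testes. Spermatocyte-like cells gave 7.25% and 6.93% against 6.36% and 4.90%, a difference of 1.46 percentage points between groups that did not overlap. In TOs, 181 of 201 and 227 of 244 spermatocyte-like cells were in the leptotene and zygotene state, against 266 of 658 and 319 of 799 in testes, and within that state the groups overlapped. Over the 14 comparisons of classes and states, no permutation p fell below 0.33, and the lowest after Benjamini-Hochberg adjustment was 0.778 (exact permutation tests).

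**Figure D2:**
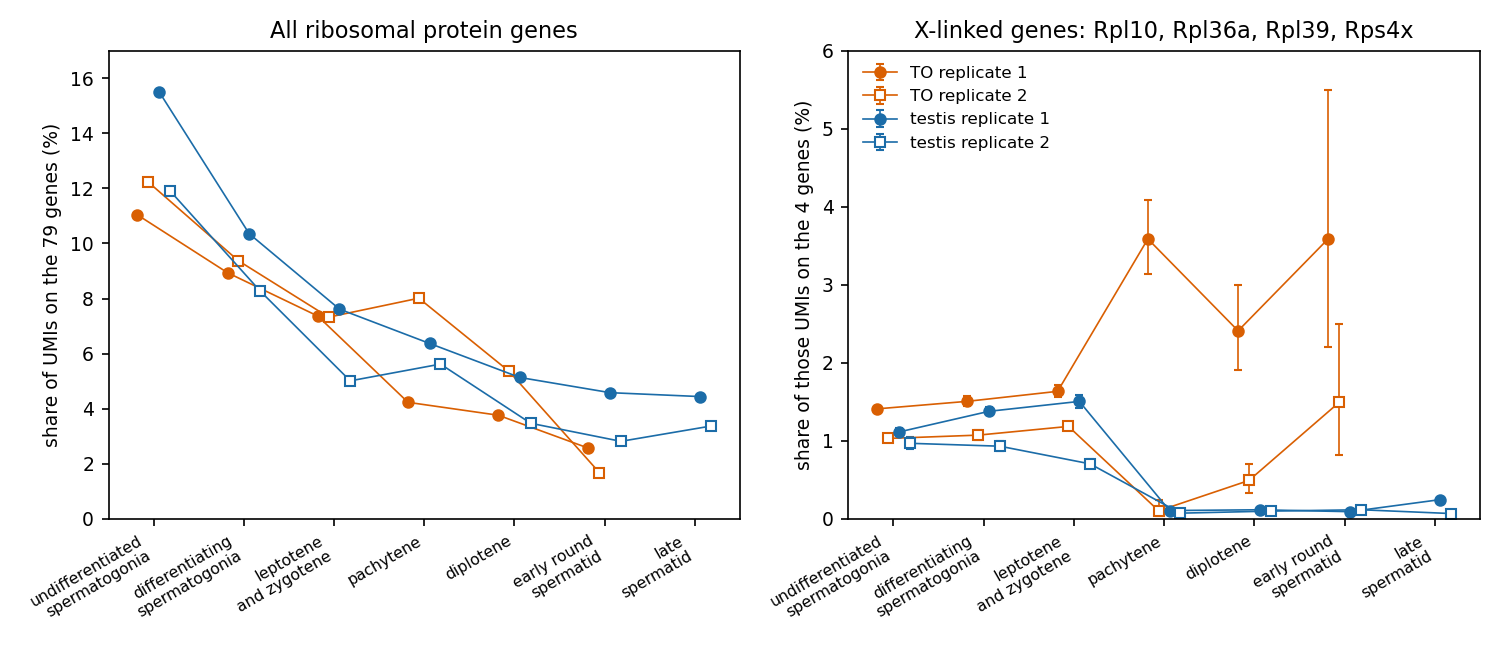
Left, share of UMIs on the 79 ribosomal protein genes (y axis, percent) by germ cell state (x axis), with 1 line per library. Right, share of those UMIs that came from the 4 X-linked genes, with 95% exact binomial intervals as bars: both testis libraries lie at 1.504% and 0.70% in leptotene and zygotene and at 0.105% and 0.0714% at pachytene, where TO replicate 1 lies at 3.59%.

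The Rpl10 to Rpl10l switch was seen in testes, and the part of Rpl10l in the pair was lower in TOs at states up to zygotene. RPL10 joins the large subunit late in its assembly, and Rpl10l encodes a near copy of it. With 3′ counting UMIs were not scaled by length, and the share of Rpl10l in the UMIs of both genes was used. Reads of near copies may not be split cleanly by alignment. Levels also moved with coding length between replicates, as given below, but Rpl10 and Rpl10l both have 642 coding bases. In testes this share was 23.7% and 21.3% in undifferentiated and 14.96% and 15.6% in differentiating spermatogonia-like cells. It then reached 25.9% (50 of 193 UMIs) and 38.9% (84 of 216) in leptotene and zygotene, 93.4% and 94.4% at pachytene, 93.2% and 94.5% at diplotene, 89.3% and 90.6% in early round and 76.0% and 85.9% in late spermatid-like cells. Most testis cells of the diplotene state lay in spermatid-like clusters, as given above.

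In TOs the share stayed low through early meiosis. It was 9.97% and 11.0% in undifferentiated and 6.96% and 6.07% in differentiating spermatogonia-like cells, and 5.27% (27 of 512 UMIs) and 4.51% (32 of 710) in leptotene and zygotene. In each of these states both TO libraries lay below the testes, with differences of −12.0, −8.77 and −27.5 percentage points. TO cells of these states carried more somatic RNA than testis cells, as given below, and free RNA was subtracted in testes only. After free RNA was subtracted in testes, the values of testis replicate 1 were 17.6%, 2.63% and 6.45% and those of testis replicate 2 were 19.8%, 12.7% and 38.3%. In leptotene and zygotene the TOs thus stayed below both testis libraries, but testis replicate 1 then stood close to them, and in differentiating spermatogonia-like cells the groups overlapped. The markers of the leptotene and zygotene state also differed between groups. Its pachytene markers summed to 1700 and 1381 CPM in TOs and to 4615 and 3981 CPM in testes. Its spermatogonia markers summed to 1209 and 1341 CPM in TOs and to 591 and 347 CPM in testes. The part of this difference in the shares of Rpl10l and Rpl39l was not tested.

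TO cells at later states were few and their libraries differed. At pachytene, 5 of 40 UMIs (12.5%) came from Rpl10l in TO replicate 1 and 7 of 7 in TO replicate 2, with a lower 95% exact Clopper-Pearson bound of 59.0%. At diplotene the counts were 6 of 23 UMIs (26.1%, interval 10.2% to 48.4%) and 19 of 26 (73.1%, interval 52.2% to 88.4%), both below the testes. In early round spermatid-like cells 0 of 5 UMIs came from Rpl10l in each TO library, which allows up to 52.2%. These intervals cover counting error only.

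The cells of TO replicate 1 in these states carried more somatic RNA, since 7 somatic genes (Col1a1, Col1a2, Col3a1, Sparc, Dcn, Clu and Vim) held 0.236% of UMIs at pachytene in TO replicate 1, 0.0243% in TO replicate 2 and 0.00907% and 0.00963% in testes. Of the 54 pachytene-like cells of TO replicate 1, 48 lay in spermatid-like clusters. The part of this RNA in the low Rpl10l share of that library was not tested. In undifferentiated spermatogonia-like cells the same genes held 0.153% and 0.0481% in TOs against 0.0108% and 0.0187% in testes. In differentiating cells they held 0.0552% and 0.0287% against 0.00794% and 0.0160%, and in leptotene and zygotene 0.0708% and 0.0331% against 0.0179% and 0.00426%. Its part in the TO shares of Rpl10l and Rpl39l in these states was not tested either. Within the spermatocyte-like class the states differ between groups, as given above. There TOs gave an Rpl10l share of 5.51% and 8.18%, and testes gave 76.5% and 78.5%.

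Behind the share, both genes moved. In spermatocyte-like cells Rpl10 was at 312 and 220 CPM in TOs and 40.9 and 32.6 CPM in testes, and Rpl10l was at 18.2 and 19.6 CPM against 133 and 119 CPM. In leptotene and zygotene the gap was smaller, with Rpl10 at 314 and 230 CPM against 139 and 81.6 CPM, and Rpl10l at 17.5 and 10.9 CPM against 48.5 and 51.9 CPM. TO libraries did not overlap testis libraries for either gene in either set of cells. With free RNA subtracted, Rpl10l in leptotene and zygotene was at 9.25 CPM in testis replicate 1, below both TO libraries, and at 48.4 CPM in testis replicate 2.

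In testes the share of Rpl39l was already high in undifferentiated spermatogonia-like cells and was lower in differentiating and in leptotene and zygotene-like cells. From pachytene on it was at least 96.2%. RPL39 lines the exit tunnel of the large subunit, and Rpl39l encodes a copy that takes its place. In testes Rpl39l held 73.6% and 81.5% of the UMIs of the pair in undifferentiated, 47.2% and 69.2% in differentiating spermatogonia-like cells and 44.8% and 78.4% in leptotene and zygotene. It held 98.1% and 98.8% at pachytene, 98.5% and 99.5% at diplotene, 99.1% and 99.4% in early round and 96.2% and 99.1% in late spermatid-like cells.

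In TOs Rpl39l held 55.6% and 68.8% in undifferentiated spermatogonia-like cells, below both testis libraries. In differentiating cells it held 40.3% and 53.5%, where the groups overlapped, and in leptotene and zygotene 36.4% and 43.9%, where they did not, although TO replicate 2 and testis replicate 1 lay within 1 percentage point of each other. The testis libraries themselves lay further apart there than the group means did. After subtraction of free RNA testis replicate 1 was at 20.7% in differentiating and 9.01% in leptotene and zygotene-like cells, below both TO libraries, and testis replicate 2 at 65.1% and 76.2%.

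TO replicate 2 reached testis-like shares in the few later cells: 97.8% at pachytene, 96.2% at diplotene and 97.6% in early round spermatid-like cells. TO replicate 1 gave 44.5%, 70.7% and 45.5%. The level of Rpl39l in those states was 343 and 624 CPM in TO replicate 1 and 1444 and 1541 CPM in TO replicate 2 for pachytene and diplotene, against 1259 and 1445 CPM in testis replicate 1 and 1380 and 1405 CPM in testis replicate 2. Over the 28 paralog comparisons 19 did not overlap between groups, all at the smallest exact permutation p of 0.33 (0.491 after Benjamini-Hochberg adjustment). Any separation of 2 against 2 libraries has this p. The classes and states share cells, and no count over other gene pairs was made, so the 19 only describe these pairs.

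**Figure D3:**
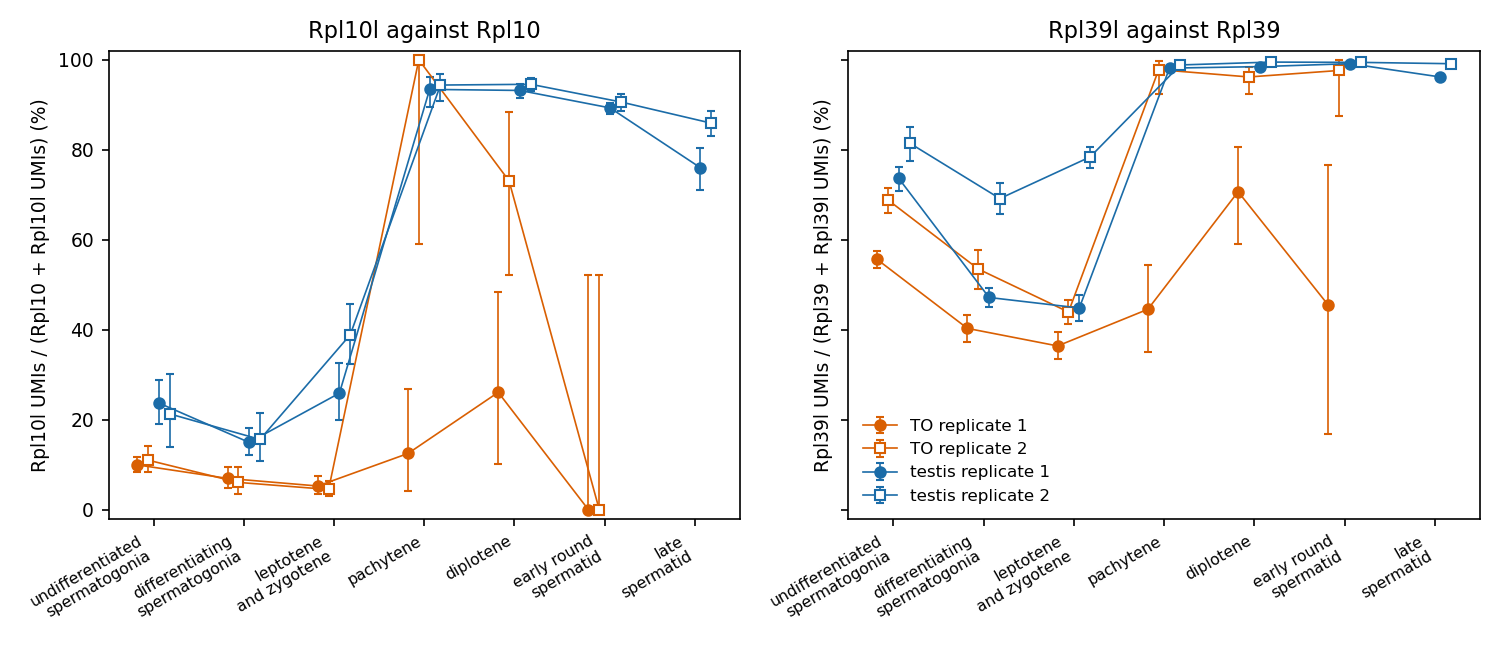
Share of the paralog in the UMIs of each pair (y axis, percent; left Rpl10l in Rpl10 plus Rpl10l, right Rpl39l in Rpl39 plus Rpl39l) by germ cell state (x axis), with 1 line per library and 95% exact binomial intervals as bars. Testes reach over 93% for Rpl10l and over 98% for Rpl39l at pachytene, and TOs lie below both testis libraries for Rpl10l in the first 3 states.

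The 4 X-linked genes held a share of the ribosomal protein UMIs that was low in germ cells and near 0 from pachytene on in testes. In testes they held 1.11% and 0.97% of member UMIs in undifferentiated, 1.38% and 0.93% in differentiating spermatogonia-like cells and 1.504% and 0.70% in leptotene and zygotene. From pachytene to early round spermatids they held between 0.07% and 0.12%. TOs held 1.41% and 1.03%, 1.51% and 1.07%, and 1.63% and 1.18% in the first 3 states, overlapping the testes in each.

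At pachytene TO replicate 2 was at 0.10% and TO replicate 1 at 3.59%, the library whose pachytene-like cells carried somatic RNA, and in diplotene the TO values were 2.41% and 0.49%. Early round spermatid-like cells of TOs gave 3.59% and 1.49%. Over 9 comparisons of germ classes and states, 4 did not overlap (spermatocyte-like, spermatid-like, diplotene and early round), with TOs higher in each and an exact permutation p of 0.33 (0.667 after Benjamini-Hochberg adjustment). These classes and states share cells, and no count over other gene sets was made. In these 4, the 7 somatic genes named above held more UMIs in both TO libraries than in testes. Spermatocyte-like cells gave 0.0706% and 0.0337% against 0.00530% and 0.00329%, and spermatid-like cells 0.210% and 0.106% against 0.00660% and 0.00357%. Diplotene cells gave 0.142% and 0.0508% against 0.00964% and 0.00481%, and early round cells 0.152% and 0.0501% against 0.00455% and 0.00418%. The part of somatic RNA in the X-linked shares was not tested. Of member UMIs, the X-linked genes held 5.44% and 4.69% in Leydig-like cells of TOs against 5.04% and 4.19% in testes. Other somatic-like cells gave 6.81% and 6.31% against 5.24% and 5.18%. With free RNA subtracted the testis values of other somatic-like cells were 7.94% and 5.51%, which overlapped the TOs. Sertoli-like cells stood lower, at 3.45% and 2.77% against 1.93% and 1.66%. Rps4x, which encodes a small subunit protein, showed the same contrast, with 2669 and 4188 CPM in other somatic-like cells of TOs, 330 and 315 CPM in their undifferentiated spermatogonia-like cells and 119 and 67.4 CPM in their spermatocyte-like cells. In testes the same classes gave 1670 and 1859, 435 and 391, and 16.1 and 12.4 CPM.

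The remaining pairs did not share 1 pattern. Rpl36al, an autosomal copy of the X-linked Rpl36a, held 43.8% and 49.9% of its pair in spermatocyte-like cells of TOs and 82.7% and 90.1% in testes, and 44.0% and 46.4% against 49.1% and 72.2% in leptotene and zygotene taken by state. In spermatogonia-like cells it held 38.9% and 43.2% against 37.9% and 50.4%, so that its groups overlapped there. Rpl22l1, a copy of Rpl22, held 37.6% and 24.9% in spermatogonia-like cells of TOs and 19.1% and 16.4% in testes, but 16.6% and 16.0% against 35.3% and 29.1% in spermatocyte-like cells. The direction thus turned between the 2 classes, and the difference between them was not tested. By state, undifferentiated cells gave 46.2% and 38.2% against 33.3% and 27.0%, differentiating cells 11.3% and 8.80% against 9.65% and 10.6%, and leptotene and zygotene-like cells 16.0% and 13.3% against 190 of 1027 UMIs in testis replicate 1 and 21.1% in testis replicate 2. The groups stayed apart in the first and last of these states, and overlapped in differentiating cells.

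Rps27l, a p53-responsive copy of Rps27, held 46.4% and 58.3% in spermatocyte-like cells of TOs and 32.0% and 68.5% in testes, with testis replicate 1 lowest and testis replicate 2 highest. Rps27 has 252 coding bases and Rps27l 315, and the part of length in these shares was not tested. Rpl7l1, a copy of Rpl7, held 12.7% and 11.2% against 7.76% and 9.27% in the same cells. Rpl3l held at most 1.82% of its pair in any library of spermatogonia-like or spermatocyte-like cells.

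Gene by gene, few members passed the test within a class, and the germ paralogs were the ones that recurred. UMIs were summed per library and class and compared with edgeR's quasi-likelihood test, and called genes had an adjusted p (Benjamini-Hochberg) below 0.01 and more than 2-fold change, given here as log2 fold change of TO over testis. Genes with at least 5 times the CPM in other cells were left out as possible contamination. In Sertoli-like cells 1 of 73 members compared was called higher and 2 lower, where 20.6% of all genes compared were called. At an adjusted p below 0.05 the members numbered 10 higher and 2 lower, against 39.2% of all genes.

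Rps27l was the higher gene in Sertoli-like cells, at 713 and 742 CPM in TOs and 327 and 327 CPM in testes (log2 fold change 1.26, SE 0.18, adjusted p = 0.0020). Rpl9 (log2 fold change 0.90, SE 0.18, adjusted p = 0.0079) passed the p but not the fold threshold, and Rpl23a gave 0.75. The lower genes were Rpl39l, at 14.9 and 6.73 CPM against 328 and 256 CPM, and Rpl10l, at 1.13 and 0.40 CPM against 31.8 and 18.3 CPM. Rpl36 and Rps28, with log2 fold changes of −0.89 and −0.57, overlapped between groups, with testis replicate 1 highest. Leaving out a library leaves 1 library in its group, which the fit takes to vary like the libraries of the other group. Without TO replicate 1 only Rps27l was called, and both paralogs were then among the genes left out, as Rpl10l was without TO replicate 2.

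Leydig-like cells gave no called member among 76 compared, where 2.32% of all genes were called, and none at an adjusted p below 0.05, where 9.01% of all genes passed. With edgeR 2 members had an unadjusted p below 0.05, as had 3192 of 12203 genes. DESeq2 called none either, where 376 genes were called higher and 739 lower. It gave 2 members higher at an adjusted p below 0.05, against 618 genes higher and 1035 lower. At an unadjusted p below 0.05 it gave 6 members, against 3004 genes. The largest changes were in Rpl3 (log2 fold change 0.96, SE 0.35, adjusted p = 0.14), Rpl10a (0.85) and Rps12 (0.84), and on the lower side in Rpl41 (−0.30), Rpl31 (−0.27) and Rpl38 (−0.24). The sign was positive for 67 of the 76 members, with a median log2 fold change of 0.41 against 0.09 over all genes. Without TO replicate 2 the median was 0.13, with 53 of 76 positive, and with free RNA subtracted it was 0.22, with 54 positive.

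In macrophage-like cells none of 79 members was called higher and 2 lower, where 15.3% of all genes were called. At an adjusted p below 0.05, 21 were higher and 3 lower, against 21.8% of all genes (638 higher and 1526 lower of 9904). The higher members included Rpl26 at 999 and 857 CPM against 690 and 327 CPM (log2 fold change 1.08, adjusted p = 0.048), Rpl7a (1.05, adjusted p = 0.017), Rpl5 (1.05, adjusted p = 0.019) and the X-linked Rps4x (1.05, adjusted p = 0.015) and Rpl10 (1.02, adjusted p = 0.016). RPL5 binds the 5S RNA of the large subunit. The median log2 fold change was 0.72 against 0.10 over all genes, and 74 of 79 members were positive. With counts scaled by total UMIs instead, the medians were 0.50 and −0.12, and 70 members were positive. At an adjusted p below 0.05, 2 members were then higher and 3 lower, against 367 genes higher and 1789 lower.

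The lower genes of macrophage-like cells were Rpl39l (19.2 and 9.17 CPM against 422 and 354 CPM), Rpl10l (1.01 and 1.57 CPM against 50.1 and 20.8 CPM) and, at the looser threshold, Rpl3l (2.52 and 4.92 CPM against 20.9 and 11.2 CPM, log2 fold change −1.81, SE 0.58, adjusted p = 0.046). Without testis replicate 1 Rpl10l was no longer called (log2 fold change −3.72) and Rpl26 (1.67) and Rpl39 (1.33) were called higher. With no filter on low counts 17 members were called higher and 2 lower, against 638 higher and 1486 lower of 13358 genes. With no upper limits on genes and UMIs per cell no member was called, where 215 of 9752 genes were higher and 893 lower.

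The other somatic-like cells gave the same pair of lower genes. None of 78 members was called higher and 2 lower, where 19.3% of all genes were called, and 4 were higher and 2 lower at an adjusted p below 0.05, against 33.6% of all genes. Rps3 was at 1055 and 1483 CPM in TOs and 631 and 591 CPM in testes (log2 fold change 1.17, SE 0.31, adjusted p = 0.028). Rpl3 followed with 1.16 (SE 0.34, adjusted p = 0.038), Rpl36a with 1.10 (adjusted p = 0.055), Rps4x with 1.08 (adjusted p = 0.075) and Rpl10 with 1.07 (SE 0.28, adjusted p = 0.027). RPS3 sits at the mRNA entry of the small subunit. The counts depended on the fit, since DESeq2 called 2 members higher and 2 lower, where 519 of 15357 genes were called higher and 3072 lower. At an adjusted p below 0.05 it gave 24 members higher and 2 lower, where 1257 of 15357 genes were higher and 3645 lower.

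Rpl39l was at 27.5 and 8.87 CPM against 523 and 433 CPM in these cells, and Rpl10l at 3.15 and 0.72 CPM against 47.0 and 36.8 CPM. The set of called members changed with TO replicate 1. Without it, 1 TO library was left and the spread was taken from the testes alone. Log2 fold changes were then 1.42 for Rps3, 1.46 for Rpl3 and 1.39 for Rps4x. The median over the members was 0.99 against 0.13 over all genes, and both paralogs were among the genes left out. Without testis replicate 1 only Rpl39l was called. With no filter on low counts 21 members were called higher and 2 lower, against 1388 higher and 3227 lower of 18842 genes. With no upper limits per cell no member was called, where 379 of 14763 genes were higher and 1868 lower.

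In somatic classes of testes the values of Rpl10l and Rpl39l depended on the subtraction of free RNA. The subtraction was scaled to spermatid RNA, and values below 0 were set to 0. Before it, both paralogs were higher in testis replicate 1 in each somatic class, as was the estimated share of free RNA. Spermatid RNA was higher in testis replicate 2 in each. Over all cells spermatid RNA held 0.795% and 6.89% of UMIs in testis replicates 1 and 2. In Sertoli-like cells Rpl39l was at 328 and 256 CPM and spermatid RNA at 0.259% and 1.10% of UMIs in replicates 1 and 2. Whether the paralogs came from free RNA was not tested. After free RNA was subtracted, both were at 0 CPM in every somatic class of testis replicate 1, Rpl39l was at 49.3 to 351 CPM in testis replicate 2, and neither was called in any somatic class. In that setting edgeR's test called no member in the 4 somatic classes, where 23 members of Sertoli-like, 9 of macrophage-like and none of Leydig-like or other somatic-like cells had an unadjusted p below 0.05. In the latter 3 classes it called 0 genes in all, with 848 to 2179 at an unadjusted p below 0.05, so that the loss there was not limited to the members. In Sertoli-like cells 60 of 11539 genes were called higher and 109 lower, with 4128 at an unadjusted p below 0.05.

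Spermatogonia-like cells gave no called member among 78 compared, where 8.63% of all genes were called, and none at an adjusted p below 0.05, against 13% of all genes. With edgeR 2 members had an unadjusted p below 0.05, as had 2919 of 12250 genes. DESeq2 called none, where 19 genes were called higher and 981 lower. It gave 1 member lower at an adjusted p below 0.05, against 91 genes higher and 1247 lower. Rpl39l was at 417 and 339 CPM in TOs and 560 and 540 CPM in testes (log2 fold change −0.58, SE 0.19, adjusted p = 0.080), and Rpl10l at 32.4 and 20.8 CPM against 48.7 and 32.3 CPM (−0.68, SE 0.28, adjusted p = 0.18). The largest changes were in Rpl38 (−0.85), Rpl36 (−0.60) and Rpl37 (−0.58), all with overlapping groups, and on the higher side in Rpl10 (0.40), Rpl26 (0.34) and Rpl5 (0.32). The median was −0.08 against 0.03 over all genes, but it was 0.10, with 54 of 78 positive, without testis replicate 1.

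Leaving out testis replicate 2 called Rpl38 (−1.36), Rpl36 (−1.07) and Rpl37 (−1.07), and leaving out TO replicate 1 called Rpl38 (−1.26). In differentiating spermatogonia-like cells taken by state, where 9.77% of all genes were called, Rpl39l was called lower (log2 fold change −1.03, SE 0.18, adjusted p = 0.0015) and no other member of 78 was. Rpl10l gave −1.02 (SE 0.33, adjusted p = 0.059) there.

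In spermatocyte-like cells 4 of 78 members were called higher and 4 lower, where 43.6% of all genes were called (17.6% higher and 26% lower). At an adjusted p below 0.05, 13 were higher and 5 lower, against 57.6% of all genes. Of the paralogs, Rpl10l gave a log2 fold change of −2.93 (SE 0.32, adjusted p = 4.53e-07) and Rpl39l one of −2.48 (SE 0.36, adjusted p = 1.45e-05), with 1313 and 1131 CPM in testes and 257 and 248 CPM in TOs. The X-linked parents rose, with Rpl10 at 2.62 (SE 0.30, adjusted p = 1.04e-06) and Rpl36a at 1.92 (SE 0.37, adjusted p = 0.00028). Rpl39 gave 1.13 (SE 0.38, adjusted p = 0.017), at 403 and 213 CPM against 167 and 69.4 CPM, and Rps4x was among the genes left out.

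The autosomal calls of spermatocyte-like cells were smaller. Rps19 was at 991 and 1130 CPM against 414 and 357 CPM (log2 fold change 1.26, SE 0.35, adjusted p = 0.0046), and Rpl10a at 843 and 773 CPM against 334 and 330 CPM (1.07, SE 0.33, adjusted p = 0.0089). Rpl38 was at 325 and 209 CPM against 921 and 361 CPM (−1.51, SE 0.41, adjusted p = 0.0042), and Rpl24 at 353 and 289 CPM against 611 and 540 CPM (−1.06, SE 0.32, adjusted p = 0.0091). RPS19 is needed to mature the small subunit RNA, and RPL38 is known for mRNA-specific effects on translation in development. Rpl10a lost its call when any of the 4 libraries was left out (0.95 to 1.14), Rpl24 without TO replicate 1 (−1.11), TO replicate 2 (−1.002) or testis replicate 1 (−0.90), Rps19 without TO replicate 1 (1.44) or TO replicate 2 (1.07), and Rpl38 without TO replicate 2 (−1.29) or testis replicate 1 (−0.59). Without TO replicate 1 Rpl10 was among the genes left out. Rpl10l and Rpl39l were called in all 18 alternatives run on this class.

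When leptotene and zygotene-like cells were compared by state, 9.79% of all genes and 2 of 78 members were called, and the 2 were again Rpl10l (log2 fold change −1.88, SE 0.35, adjusted p = 0.0053) and Rpl39l (−1.33, SE 0.22, adjusted p = 0.0030). Rpl10 was at 1.29 (SE 0.30, adjusted p = 0.016), Rpl36a at 0.55, Rps19 at 0.55, Rpl10a at 0.53, Rpl24 at −0.09 and Rpl38 at −1.07 (adjusted p = 0.11). The sign of Rpl39 turned to −0.24. Markers of this state differed between groups, as given above, and the part of that in these folds was not tested. The state fit thus called the paralogs, at a smaller size, and none of the other 6 genes called in the class. It was not run with free RNA subtracted, where Rpl39l in leptotene and zygotene was at 80.1 CPM in testis replicate 1, below both TO libraries (243 and 200 CPM), and at 540 CPM in testis replicate 2, and Rpl10l likewise, as given above. Scaling by total UMIs rather than TMM moved the median of all genes in spermatocyte-like cells from 0.04 to 0.23 and gave 12 higher and 3 lower members. With that scaling 2451 of 10858 genes were called higher and 2513 lower.

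**Figure D4:**
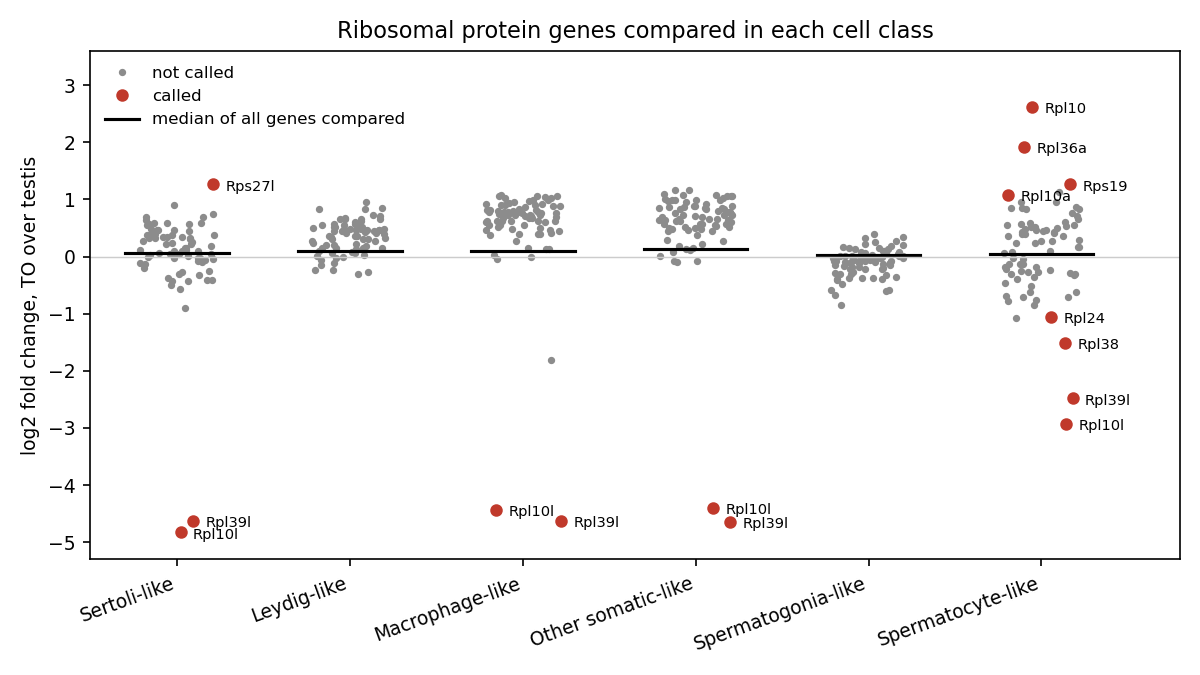
Log2 fold change of TO over testis (y axis) for the members compared in each cell class (x axis), 1 point per gene, with called genes in red and named and the median over all genes as a bar. Rpl10l and Rpl39l lie between −4.40 and −4.83 in 3 somatic classes, and Rpl10 reaches 2.62 in spermatocyte-like cells.

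Genes of the same pathway outside the member rule were compared in the same fits. Of 18 genes for elongation factors and other mRNAs with a terminal oligopyrimidine start, which are translated together with ribosomal protein mRNAs, Hnrnpa1 was called higher in Sertoli-like (1.20) and spermatocyte-like cells (1.26). Pabpc1, the poly(A) binding protein, was called lower in both (−1.44 and −1.75), Eif3k gave −1.58 in spermatocyte-like cells, and 1 gene was higher and 4 were lower there in all, where 43.6% of all genes were called.

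Of 33 ribosome biogenesis genes 7 were called higher and 5 lower in spermatocyte-like cells, a smaller part than the 43.6% of all genes. They included Polr1b (2.70), a subunit of RNA polymerase I, and Dkc1 (2.17), the pseudouridine synthase, on the higher side, and Sbds (−2.85) and Rrp1 (−2.18), which work in large subunit maturation, on the lower side. Rrs1 was higher in Sertoli-like (1.14) and other somatic-like cells (1.71), and Wdr12 was lower (−1.03) in spermatogonia-like cells. The median log2 fold changes of the oligopyrimidine mRNAs and of the biogenesis genes were −0.39 and 0.35 in spermatocyte-like cells, on either side of 0.04 over all genes and 0.23 over the members, which turned to −0.08 without testis replicate 2.

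Across the classes and states of testes, each member's share of member UMIs was set against its lowest. Rps4x varied most, 94.9-fold, from 2.40% in endothelial-like to 0.03% in spermatocyte-like cells. Rpl10 (58.6-fold), Rpl36a (57.4-fold) and Rpl39 (52.0-fold) followed, and then Rpl39l (21.7-fold) and Rpl10l (20.6-fold). These 6 were the X-linked genes and their autosomal copies. Among autosomal genes with no germ paralog in the list, Rpl14 (14.7-fold) and Rpl10a (10.9-fold) varied most, both from undifferentiated spermatogonia-like to early round spermatid-like cells. The median over the 78 members with at least 50 CPM in a class or state was 2.29-fold, 15 exceeded 4-fold, and Rpl35 varied least (1.41-fold).

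Replicates of the testis differed among the members by coding length. In Leydig-like cells the CPM of testis replicate 1 over replicate 2 had a median of 1.57 over the members with under 400 coding bases and 0.94 over longer members. In spermatocyte-like cells the medians were 1.99 and 1.07, where all genes gave 0.93. The Spearman correlation with coding length, a description across genes that share 2 libraries, was −0.60 over 77 members in Leydig-like and −0.62 over 77 members in spermatocyte-like cells, and −0.45 to −0.66 over all classes. The member with the highest ratio was Rpl37 in Leydig-like (2.35) and Rpl35 in spermatocyte-like cells (3.07), and that with the lowest was Rpl11 (0.66) and Rpl14 (0.59). Rpl36, Rpl37 and Rpl38, the members with the largest negative folds in spermatogonia-like cells, are short.

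The TO libraries showed the same order with smaller values. In other somatic-like cells TO replicate 1 over replicate 2 had a median of 0.92 over short and 0.65 over long members, and the correlation lay between −0.33 and −0.56 in all classes but spermatid-like cells (0.01). Over all cells, short members held 33.7% and 28.7% of member UMIs in the TO libraries and 44.5% and 35.9% in the testis libraries, so that length also moved with the groups. Its part in the calls of Rpl38, Rpl36a and Rpl39l, which are short, was not tested.

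**Figure D5:**
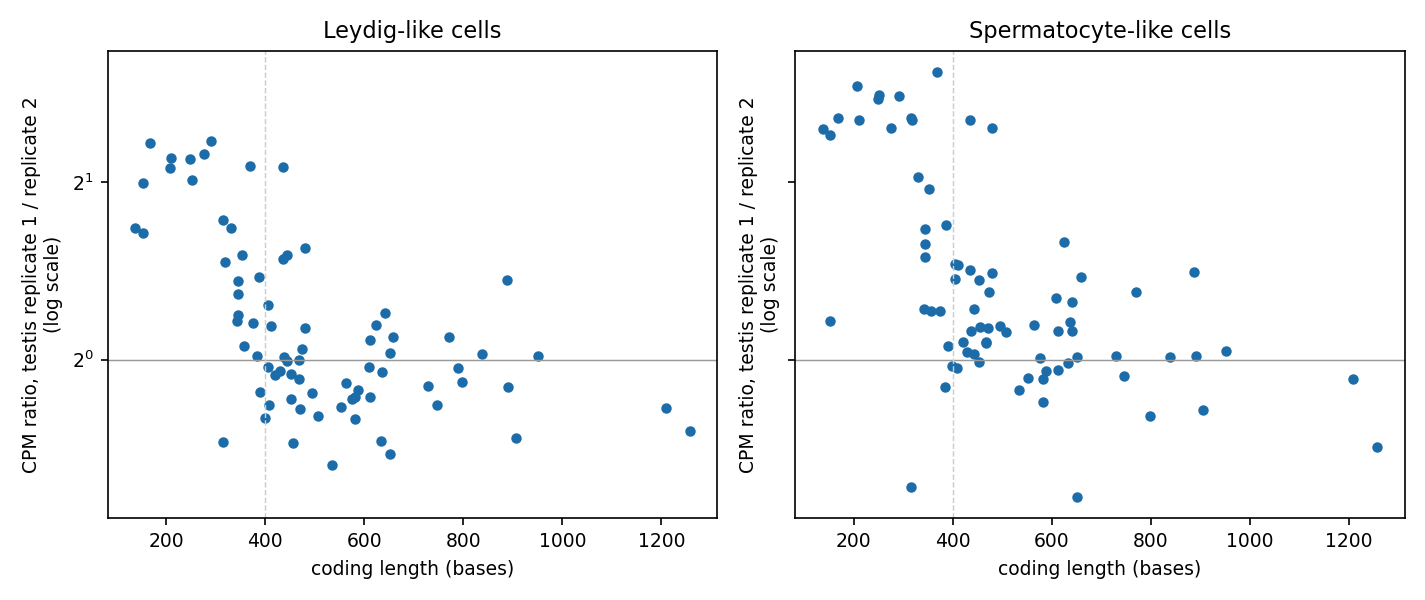
Ratio of CPM in testis replicate 1 to replicate 2 (y axis, log scale) against coding length in bases (x axis) for each member with at least 20 CPM, in Leydig-like (left) and spermatocyte-like cells (right). The dashed line marks 400 bases, and most members left of it lie above a ratio of 1, with medians of 1.57 and 1.99.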

How the data were processed

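Single-cell 3′ RNA-seq of 2 TO and 2 testis libraries was used. The values deposited by the authors were UMI counts, not normalized, which Cell Ranger 7.1.0 had made on mm10 per the submitters' processing notes. The study's filters were applied (1000 to 5000 genes, no more than 20000 UMIs and a mitochondrial share up to 10% per cell). Doublets were removed with Scrublet (scanpy 1.11.5) at 0.8% per 1000 barcodes in place of DoubletFinder. Libraries were joined with a Harmony implementation written for these data (2000 variable genes, 30 components, 20 for germ cells) and clustered with leidenalg 0.10.2 (20 neighbours, resolution 1). Clusters were named from marker lists, and germ cell states from a second clustering of germ cells. The genome annotation was GENCODE vM21, and promoter sequences were RefSeq's (GRCm38.p6).

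Depth was 74988295 to 119966959 UMIs per library before filtering, and intervals of shares are exact Clopper-Pearson intervals at 95%. Shares were compared with exact two-sided permutation tests over libraries. Summed counts were compared with edgeR 4.0.16 (TMM, filterByExpr, quasi-likelihood test, Benjamini-Hochberg adjustment over all genes compared) in R 4.3.3; sums per library replaced the study's test across cells. SE is the log2 fold change over the square root of F. On simulated counts edgeR recovered 53% of 100 log2 changes of 1.5 and 100% of those of 3 in spermatocyte-like cells (12463 genes), and 61% and 100% in Leydig-like cells (15186 genes). Free RNA was estimated from spermatid RNA in somatic classes of testes and subtracted as an alternative.

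Named genes were every gene of the pairs, every X-linked member, the 3 members with the largest fold in each direction per class with at least 50 CPM, the 5 members that varied most and the 2 called genes with the largest fold in each direction of each list. Rpl14, Rpl10a and other genes named with a count were chosen after their values were seen. Members and lists were chosen with earlier results of these data known. Alternatives covered filters, doublets, clustering, free RNA, scaling, DESeq2 1.42.0, thresholds, matched states, the replicate block and each library left out. Late spermatid-like cells were not compared, and endothelial-like and spermatid-like cells were not fitted gene by gene.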

Additional observations from a re-analysis of the deposited data

Results flagged for a closer look

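Several differences pointed in opposite directions between classes under the same contrast of TO against testis, and none of the differences between classes was tested. The share of UMIs on ribosomal protein genes was above both testis libraries in both TO libraries by 3.27 percentage points in Leydig-like, 2.65 in macrophage-like, 3.69 in other somatic-like and 1.46 in spermatocyte-like cells. With free RNA subtracted in testes, the groups overlapped in Leydig-like and other somatic-like cells. They also overlapped in the leptotene and zygotene state, which held most spermatocyte-like cells of TOs. The member share was below both testis libraries by 7.61 percentage points (−7.61) in the endothelial-like cluster, whose 66 and 79 TO cells held more Sertoli than endothelial markers. It was also lower by 1.57 (−1.57) in early round spermatid-like cells, of which TOs gave 10 and 15.

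The share of Rpl22l1 in the UMIs of Rpl22 and Rpl22l1 was higher in TOs by 13.5 percentage points in spermatogonia-like cells and lower by 15.9 (−15.9) in spermatocyte-like cells. By state the groups stayed apart in undifferentiated spermatogonia (46.2% and 38.2% against 33.3% and 27.0%), and in differentiating spermatogonia the difference was −0.08. The level of Rpl22l1 in spermatogonia-like cells was 671 and 446 CPM for TOs and 360 and 287 CPM for testes.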

How the results depend on the processing

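Each group had 2 libraries, so the permutation tests had no p below 0.33, and TO cells from pachytene on were few. Testis replicate 1 held the most free RNA, and its short mRNAs stood high. Counts of spermatid-like and endothelial-like cells in TOs were too low or too mixed for gene tests. Of the differences, counts and folds that answer a comparison, 650 values under alternatives kept their direction and side, 46 changed sign and 33 moved, and for single genes 931 were kept, 35 changed sign, 40 passed and 40 lost the threshold and 32 moved. A fit that leaves out a library takes the lone library of that group to vary like the other group. The causes were not tested unless the alternative itself has fewer libraries or genes.

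Shares are given as TO minus testis in percentage points. The member share in Sertoli-like cells was −0.0618 with no upper limits per cell. With no doublet removal it was 0.0570 in spermatogonia-like and 0.16 in differentiating cells, and the latter gave 0.0497 without mitochondrial UMIs. It was −0.70 in spermatid-like cells without Harmony and −0.24 at pachytene with members kept among the clustering genes. With libraries left out one at a time it ranged from −0.53 to 0.67 in Sertoli-like, −1.66 to 0.94 in spermatogonia-like, −0.41 to 0.98 in spermatid-like, −1.20 to 0.88 in differentiating, −0.27 to 2.33 in leptotene and zygotene, −1.76 to 2.02 in pachytene and −0.57 to 1.09 in diplotene-like cells.

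For the paralog shares, subtraction of free RNA gave 2.17 (Rpl39l) and 1.06 (Rpl36al) in spermatogonia-like and 4.00 (Rpl39l) in differentiating cells. Rpl3l in spermatogonia-like cells gave 0.0308 with no upper limits, 0.0184 with no doublet removal, 0.0619 by the per-cell marker score and 0.0308 with members kept among the clustering genes. In spermatocyte-like cells Rpl3l gave 0.55 with no upper limits, 0.00363 with no doublet removal and 0.38 without Harmony. Rps27l there gave −0.22 with members kept and −4.33 in the matched state, and Rpl22l1 gave −0.0825 in the matched state of spermatogonia. With libraries left out, Rpl10l at pachytene ranged from −81.4 to 6.10 and Rpl39l in spermatogonia-like cells from −16.6 to 1.02. Rpl3l ranged from −0.48 to 0.33 in spermatogonia-like and −0.71 to 0.54 in spermatocyte-like cells, Rps27l from −18.4 to 7.14 and −16.1 to 20.4, and Rpl36al in spermatogonia-like cells from −9.36 to 3.18. The X-linked share ranged from −0.0570 to 0.27 in spermatogonia-like, −0.0101 to 0.37 in undifferentiated, −0.0887 to 0.36 in differentiating and −0.0958 to 0.71 in leptotene and zygotene-like cells.

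The counts of called members (3, 0, 2, 2, 0 and 8 in Sertoli-like, Leydig-like, macrophage-like, other somatic-like, spermatogonia-like and spermatocyte-like cells) moved with the threshold to 12, 24, 6 and 18 at an adjusted p below 0.05 in Sertoli-like, macrophage-like, other somatic-like and spermatocyte-like cells. In the same order they were 1, 0, 0 and 5 with no upper limits, 0, 0, 0 and 4 with free RNA subtracted, and 1, 0, 0 and 4 where genes were left out from 2 times the CPM. With no gene left out 2 members were called in Leydig-like cells. With any count allowed 19 were called in macrophage-like and 23 in other somatic-like cells, where DESeq2 called 4. Total UMIs gave 15 in spermatocyte-like cells, and matched states gave 1 in spermatogonia and 2 in spermatocytes. With libraries left out the counts ranged from 1 to 5 in Sertoli-like, 1 to 25 in other somatic-like, 0 to 3 in spermatogonia-like and 4 to 15 in spermatocyte-like cells. In spermatocyte-like cells 15 were called without testis replicate 2 and 4 without TO replicate 1.

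Same-numbered libraries did not deviate together in every class (correlations of −0.01 to 0.34 over genes), though over the members alone the correlations were 0.68 to 0.80. With 2 numbers only and no label that ties them to a shared batch, the numbers were not taken as pairs. With the number as a replicate block 9 members were called in macrophage-like cells (7 higher and 2 lower, with 53 higher at an adjusted p below 0.05), and log2 folds turned to 0.0797 for Rps29 there and 0.0480 for Rpl36 in other somatic-like cells. The block moved no other count of called members by over 1.5 times. At an adjusted p below 0.05 it gave 14 members higher in other somatic-like cells (4 without it), where 2776 of 15357 genes were higher. In Sertoli-like cells it gave 14 higher (10 without it), where 2784 of 12497 genes were. In spermatogonia-like cells 3 were lower (0 without it), where 1763 of 12250 genes were.

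The other log2 folds that changed sign were small. With free RNA subtracted they were 0.0410 (Rpl36, Sertoli-like), −0.11 (Rpl39, Leydig-like), 0.0790 and 0.0828 (Rpl41, macrophage-like and other somatic-like), −0.0600 (Rpl39, other somatic-like) and 0.0268 (Rpl10l, spermatogonia-like). With any count allowed they were 0.0701 (Rpl41) and 0.11 (Rps29) in macrophage-like and 0.0618 (Rpl41) and 0.0730 (Rpl36) in other somatic-like cells. Rpl36a in spermatogonia gave 0.0819 and Rpl39 in spermatocytes −0.24 in the matched states, and Rpl39 in spermatogonia-like cells 0.18 by the per-cell score. With libraries left out, Rps28 ranged from −1.13 to 0.43 in Sertoli-like cells, and Rpl41 from −0.59 to 0.14, Rpl31 from −0.45 to 0.00506, Rpl38 from −0.68 to 0.45 and Rpl39 from −0.16 to 0.82 in Leydig-like cells. In macrophage-like cells Rpl41 ranged from −0.48 to 0.37 and Rps29 from −0.53 to 0.59, and in other somatic-like cells Rpl41 from −0.56 to 0.57 and Rpl36 from −0.59 to 0.67. In spermatogonia-like cells the ranges were −1.07 to 0.0886 (Rpl36), −1.07 to 0.16 (Rpl37), −0.13 to 1.04 (Rpl26), −0.46 to 0.47 (Rpl36a) and −0.65 to 0.56 (Rpl39).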
